A study of Mus musculus with 21 samples.

Results

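Wild-type (WT) pharyngeal arch 3 (PA3) was compared with WT pharyngeal arch 2 (PA2) in mouse embryos at E10.5 (E for embryonic day), by RNA-seq counts of 14383 genes in 3 libraries of each arch. The 6 libraries were chosen by their sample labels and belong to a series of 21. A further 6 libraries hold PA2 and PA3 of E10.5 embryos lacking HIRE1 (HIRE1del), a distal regulatory region on the chromosome of the Hoxa cluster, and the remaining libraries hold sorted cranial neural crest cells (CNCCs) of PA2 and of the developing pinna. To identify what sets both arches apart, genes were compared for arch identity factors, signalling pathways and markers of the tissues that an arch contains. The WT embryos had a mixed C57Bl/6J and CD1 background, and pooling of both sexes is described for the series as a whole. Embryos with the Wnt1::Cre driver and the ROSA RFP reporter are also called wild type in the methods, and whether the WT embryos compared here carried them is not given. CNCC is the cell type on every label, but cell sorting is described for Wnt1::Cre;ROSA RFP embryos, whose Wnt1 promoter drives Cre in crest progenitors, and the labels do not say which libraries were sorted. The 3 replicates of each group are described as independent biological replicates.

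The pharyngeal arches are paired swellings along the embryonic head and neck. Each has a core of mesoderm and a filling of neural crest mesenchyme around an arch artery, with ectoderm outside and endoderm inside. Crest cells of PA2 carry Hoxa2, a homeodomain factor required for second arch identity, and make the styloid process, part of the hyoid bone and the stapes, and the pinna draws on this arch. PA3 also carries Hox genes of paralogue group 3, and contributes to the hyoid bone, the carotid arteries and, through its pouch, the thymus and parathyroid glands.

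The 6 libraries held 25.81 to 32.21 M counts, with 17986 to 18713 genes seen at least once, and a floor of 3 counts stood for 0.0931 to 0.116 CPM (counts per 1e6 counts) in a library. Both arches overlapped in depth. Markers of several cell types besides crest were present in both arches. The erythroid list, summed over its genes, reached 1623 to 2534 CPM in PA2 and 13160 to 25640 CPM in PA3, against 2.44 to 8.44 CPM in sorted PA2 crest. The endothelial list summed to 521.3 to 558.2 CPM in PA2, 683.8 to 724.5 CPM in PA3 and 34.1 to 37.6 CPM in sorted crest. Cdh1, the cadherin of epithelia, was at 46.4, 45.5 and 48.3 CPM in PA2 and 118, 92.6 and 92.9 CPM in PA3, against 0.201, 0.343 and 0.294 CPM in sorted crest. The libraries of both arches were therefore read as whole dissected arches. In such bulk samples, fewer cells of a type and less RNA per cell cannot be told apart. The ribosomal gene Rn45s took 0.82, 1.14 and 0.866% of the counts in PA2 and 2.28, 1.92 and 1.92% in PA3.

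PA3 WT libraries stood apart from each other in 2 ways. Replicate 1 held the most visceral transcripts, with Afp at 250.2 CPM against 35.2 and 13.6 CPM in replicates 2 and 3. Replicate 3 held the most transcripts of the PA2 type. Pou3f3 reached 14.3% of its PA2 mean there, against 3 and 2.48% in replicates 1 and 2. The lincRNA 3110099E03Rik reached 7.98% there, against 0.224 and 0.209%. The HIRE1del PA3 libraries, as a percent of the HIRE1del PA2 mean, were at 9.4, 15.8 and 19.3% for Pou3f3. They were at 13.3, 14.7 and 7.81% for 3110099E03Rik. For both genes WT replicate 3 was thus nearer to them than WT replicates 1 and 2. For the antisense transcript Dlx4os, WT replicate 3 (14.3%) lay above them (5.35, 8.05 and 7.73%). Leading counts are also given without PA3 WT replicates 1 and 3, which leaves 1 PA3 WT library that is assumed to vary like the other groups. Replicate numbers also went together across the arches. Xist, transcribed from the inactive X chromosome, was at 458, 288 and 108 CPM in PA2 replicates 1 to 3 and at 721, 416 and 166 CPM in the same replicates of PA3. The Y-linked Ddx3y was at 0, 38.7 and 80.2 CPM and at 2.33, 35.6 and 52.4 CPM, so that PA2 replicate 1 held no count of it and the replicates differed in sex makeup. None of the 5 sex-linked genes tested passed the test between the arches (median log2 fold change -0.36), while with a replicate block Xist was called (adjusted p = 5.33e-05).

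Of the 14383 genes tested, 5252 (36.5%) differed between the arches at an adjusted p under 0.05 by the edgeR quasi-likelihood test. PA3 was higher for 2751 genes (19.1%) and lower for 2501 (17.4%), and the median log2 fold change (PA3 over PA2, the sign used throughout) was -0.001. Large differences were mostly on the PA3 side. At least 2-fold higher in PA3 were 1063 genes (7.39%), and 135 (0.939%) were at least 2-fold lower. The 3 values of each arch did not overlap for 7172 genes (49.9%). Without PA3 WT replicates 1 and 3, 2622 genes were called, 1677 higher and 945 lower, and 2549 of them were also called with all libraries. There, 895 genes were called and at least 2-fold higher in PA3, and 126 were at least 2-fold lower.

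**Figure D1:**
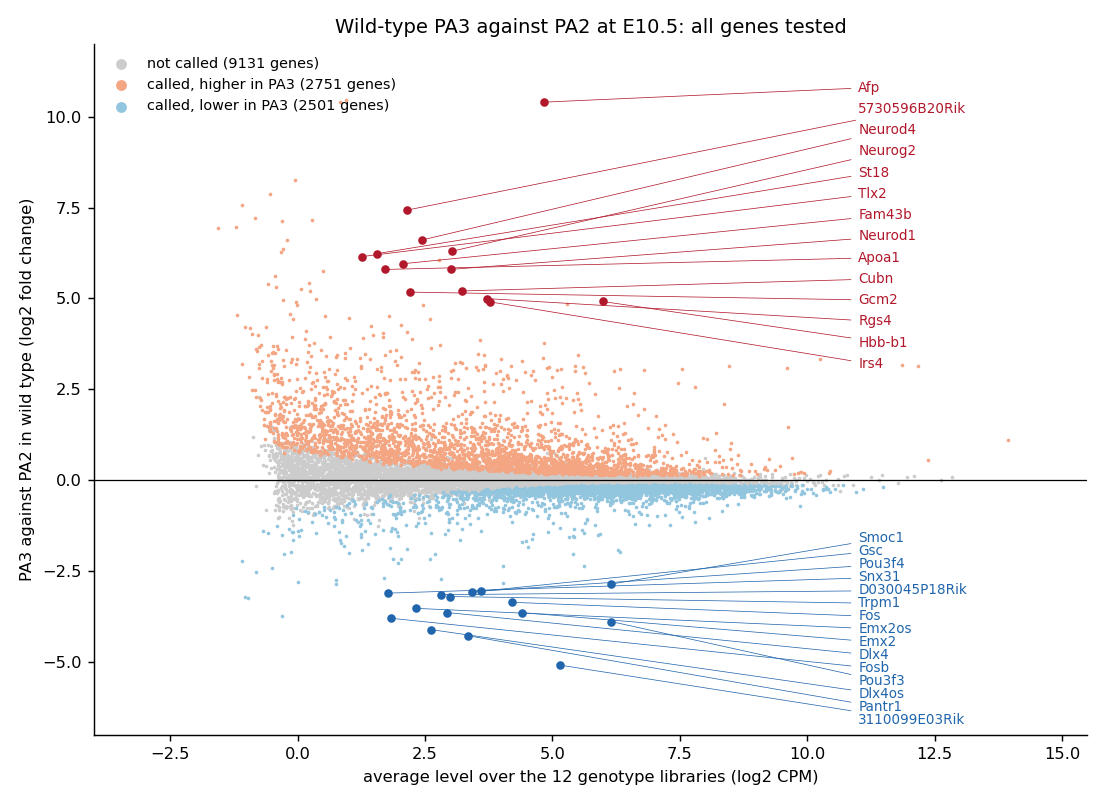
Log2 fold change (PA3 over PA2, WT, E10.5) against average log2 CPM for the 14383 genes tested, 1 point per gene, with genes called higher or lower in PA3 in colour and genes among the 15 largest changes in each direction named. Called genes lie on both sides of 0, and the named genes reach 10.4 above it and -5.08 below it.

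The 15 largest falls from PA2 to PA3 were led by transcription factors of the arch mesenchyme and by noncoding transcripts beside them. Pou3f3, a POU domain factor, was at 160, 109 and 124 CPM in PA2 and at 3.94, 3.25 and 18.8 CPM in PA3. Every PA2 library was far above the highest PA3 library, and the log2 fold change was -3.89 ± 0.48 (SE, adjusted p = 4.5e-05, edgeR). Pou3f3 lies on the plus strand of chromosome 1 (GRCm38, 42695768 to 42703176), and Pantr1, a long intergenic noncoding RNA (lincRNA), starts 926 bases from it on the other strand. Pantr1 was at 21.8, 17 and 22.97 CPM in PA2 and at 0.612, 0.929 and 1.58 CPM in PA3 (-4.28 ± 0.32). The largest fall was that of 3110099E03Rik on chromosome 2 (115493513 to 115527744, minus strand), from 81.5, 104.8 and 120.9 CPM to 0.23, 0.214 and 8.17 CPM (-5.08 ± 0.71). Another lincRNA, D030045P18Rik, was at -3.15. Without PA3 WT replicate 3, the difference was larger for Pou3f3 (-5.18) and 3110099E03Rik (-8.82).

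Emx2, a homeobox gene, was at 41.4, 39.2 and 42 CPM in PA2 and at 1.95, 1.64 and 6.05 CPM in PA3 (-3.64 ± 0.32). Its antisense transcript Emx2os, whose annotated start lies 263 bases away, was at -3.52. Dlx4 (-3.64) and its antisense neighbour Dlx4os (-4.11) also moved together. Emx2 and Emx2os share 264 exon bases and Dlx4 and Dlx4os share 79, and since the library kit kept no strand, reads from the shared bases cannot be told apart. Pou3f4, another POU factor, was at 25.3, 23.2 and 26.9 CPM in PA2 and at 1.53, 2.93 and 4.44 CPM in PA3 (-3.07). Smoc1, a secreted modulator of BMP signalling, was at 120.5, 99.6 and 112.7 CPM in PA2 and at 10.6, 11.5 and 23.5 CPM in PA3 (-2.86). The other large falls were those of Gsc (-3.05), Fosb (-3.80), Fos (-3.36), Trpm1, a cation channel gene (-3.20), and Snx31, a sorting nexin (-3.10). The ranges of both arches were apart for each of these genes, as the naming rule required. Without PA3 WT replicate 3, differences were larger for Emx2 (-4.50), Emx2os (-4.49), Dlx4 (-4.44), Dlx4os (-6.46) and Fosb (-4.55).

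Neurogenic and neuronal transcription factors were prominent among the 15 largest rises. Neurog2, a proneural factor of the epibranchial placodes, was at 0.348, 0.245 and 0.123 CPM in PA2 and at 23.9, 16.3 and 15.7 CPM in PA3 (6.30 ± 0.35, adjusted p = 1.0e-07, edgeR). Reads of Neurod1 may in part belong to Cerkl, with which it shares 201 exon bases. Neurod4 (6.61), Neurod1 (5.80) and the homeobox gene Tlx2 (74.6-fold by counts, with a 95% counting interval of 34 to 204) were at or under 0.426 CPM in each PA2 library and at or above 3.51 CPM in each PA3 library. St18, a zinc finger gene, had a ratio of 78.5 (35.8 to 215). Gcm2, which specifies the parathyroid, was at 0.387, 0.175 and 0.308 CPM in PA2 and at 12.1, 11.5 and 8.17 CPM in PA3 (5.18 ± 0.38). Irs4, an insulin receptor substrate, was at 0.968, 0.912 and 1.48 CPM in PA2 and at 39.8, 30.3 and 32.4 CPM in PA3 (4.91). Rgs4, a regulator of G protein signalling, was at 5.00 and Fam43b at 5.96 (6.62 without PA2 WT replicate 3). Afp, Apoa1, Cubn and Hbb-b1 were also among these rises and are given with their tissues below, as is 5730596B20Rik with the Hoxa cluster.

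To compare arch identity, 48 Hox genes and Hox cluster transcripts were examined. The 3 values did not overlap between arches for most of those tested, as for 49.9% of all genes tested. The paralogue group 3 genes carried the largest part of the difference. Of 14 tested, 10 were called higher in PA3 and 2 lower (85.7% called, against 36.5% of all genes). The median log2 fold change was 1.27, against -0.001 for all genes. Hoxa3 was at 3.68, 3.02 and 3.54 CPM in PA2 and at 29.8, 27.6 and 29.7 CPM in PA3 (3.09 ± 0.25, adjusted p = 2e-06, edgeR). Hoxb3 was at 11.6, 12.7 and 13.1 CPM in PA2 and at 49.3, 56.7 and 51.8 CPM in PA3 (2.08 ± 0.09). Hoxd3 was near the floor in PA2, at 0.194, 0.526 and 0.554 CPM, and at 9.87, 12.47 and 14.6 CPM in PA3 (4.81 ± 0.43). Each of the 3 genes was higher in every PA3 library than in any PA2 library. The next paralogues, Hoxb4 (3.43) and Hoxd4 (3.95), were at or under 0.281 CPM in PA2 and between 2.11 and 4.41 CPM in PA3. Hoxd3 and Hoxd4 overlap on the same strand and share 388 exon bases, so that reads there may belong to either.

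5730596B20Rik, on chromosome 6 (52177498 to 52180851, plus strand), was at 0, 0.175 and 0.0616 CPM in PA2 and at 13.5, 16.2 and 14.3 CPM in PA3 (7.43 ± 0.37, and 8.57 without PA2 WT replicate 2). It lies opposite Hoxa3 and shares 292 exon bases with it, so that part of the reads of either may belong to the other. Hoxa3 also shares 503 exon bases with Hoxaas2 on the other strand. Hoxb3os was at 35, 31.6 and 32.5 CPM in PA2 and at 79.9, 81.8 and 77.8 CPM in PA3 (1.28 ± 0.06). Hoxb2, an anterior gene, was at 26.4, 19.7 and 20.8 CPM in PA2 and at 37.5, 31 and 37.1 CPM in PA3 (0.66), and the noncoding Haglr was at 1.26.

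Hoxa2, the second arch selector gene, went the other way by a small amount. It was at 73.4, 77.2 and 84.2 CPM in PA2 and at 56, 63 and 65.1 CPM in PA3 (-0.35 ± 0.10, adjusted p = 0.015, edgeR). The ranges were apart, but the call was lost without PA2 WT replicate 3 (adjusted p = 0.0716), without PA3 WT replicate 1 (0.0644) and without PA3 WT replicates 1 and 3 (0.182). Hoxd1 was the other gene lower in PA3, at 2.63, 2.67 and 3.57 CPM against 0.536, 1.11 and 1.38 CPM (-1.54). The antisense Hoxaas2 (-0.12, adjusted p = 0.583) was not called, and Hotairm1 (0.62, adjusted p = 0.076) passed the test when PA2 replicate 3 of WT (0.0386) or PA2 replicate 2 of HIRE1del (0.0483) was dropped, by limma-voom (0.036) and for the 6 WT libraries alone (0.0489). Per kb of the gene length given in the count table, mean levels in PA2 fell in the order Hoxa2 (34.6 CPM per kb), Hoxb2 (13.7), Hoxb3 (2.93), Hoxa3 (0.567) and Hoxd3 (0.0813). In PA3 the order was Hoxa2 (27.2 CPM per kb), Hoxb2 (21.6), Hoxb3 (12.4), Hoxa3 (4.83) and Hoxd3 (2.36). The other 34 members were too low to be tested, and 21 of the 48 had no count in PA2. Hoxb5 had 0 counts in the 3 PA2 libraries and 30 in PA3 (at least 10.2-fold higher over the group's floor of 0.0346 CPM, or at least 6.38-fold without PA2 WT replicate 3), and Hoxa5 had 2 and 28 (ratio 14.3, interval 3.6 to 124).

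**Figure D2:**
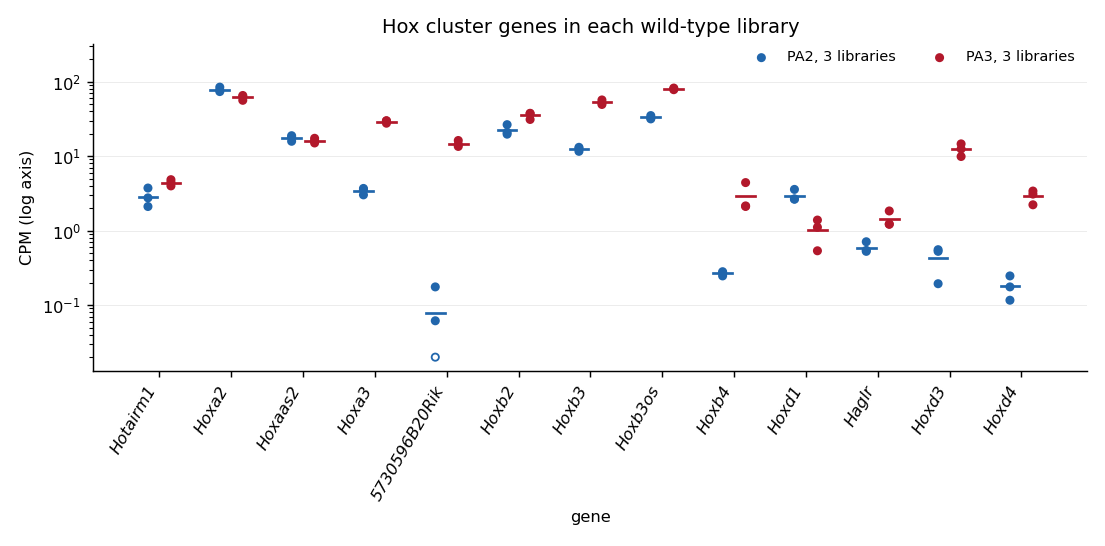
Expression of Hox genes and Hox cluster transcripts in CPM on a log axis, with 1 point per library, a bar at the mean of 3 libraries and an open circle at the bottom where a library had 0 counts. The 3 PA3 libraries lie above those of PA2 for Hoxa3, Hoxb3 and Hoxd3, whereas Hoxa2 lies at 73.4 to 84.2 CPM in PA2 and 56 to 65.1 CPM in PA3.

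The Hox cofactors, TALE homeodomain proteins that bind DNA with Hox proteins, differed by small amounts. Of those tested, 50% were called, against 36.5% of all genes. Of 8 tested, Meis3 was higher in PA3 (0.43) and Meis1 (-0.35), Meis2 (-0.37) and Pbx3 (-0.29) were lower, with a median of -0.10. The call of Meis1 was lost without PA2 WT replicate 3 (adjusted p = 0.0643) and without PA3 WT replicate 1 (0.0589). Meis2 was at 461, 435 and 454 CPM in PA2 and at 360, 347 and 342 CPM in PA3. Without PA3 WT replicates 1 and 3, none was called higher and 1 lower.

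The genes of dorsoventral arch patterning were mostly lower in PA3. This programme starts from endothelin 1 (Edn1), which acts on crest cells through its receptor Ednra and turns on the distal Dlx genes and Hand2. Of 26 tested, 16 were called lower and 7 higher, with a median of -0.67, and the counts were 15 and 5 without PA3 WT replicates 1 and 3. All 6 Dlx genes were lower. Dlx5, of the ventral part of the arch, was at 30.3, 32.8 and 33 CPM in PA2 and at 12.4, 9.43 and 12.7 CPM in PA3 (-1.48 ± 0.10), and its neighbour Dlx6 was at 37.5, 39.3 and 43 against 14.8, 13.7 and 16.4 CPM (-1.42). Dlx3, most distal in its expression, was at 88.8, 89.8 and 96.1 CPM in PA2 and at 14, 13.7 and 25.8 CPM in PA3 (-2.35 ± 0.19). The more broadly expressed Dlx1 (-0.97) and Dlx2 (-0.76) differed less. The noncoding Dlx6os1 (-1.96) and Dlx1as (-0.99) were lower as well.

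Upstream of the Dlx genes, Edn1 was higher in PA3, at 2.9, 2.7 and 1.66 CPM in PA2 and 9.14, 7.68 and 7.17 CPM in PA3 (1.73 ± 0.33), and Ece1, which processes it, was at 0.25. Ednra was lower (-0.40, adjusted p = 0.044). It missed the threshold, at 0.0542 to 0.177, when PA2 WT replicate 2 or 3, PA3 WT replicate 1 or 3 or any of 3 HIRE1del libraries was dropped. In sorted PA2 crest Edn1 was at 0, 0.172 and 0.0654 CPM. Hand2, a distal factor downstream of Edn1, was at 57.8, 69.5 and 69.7 CPM in PA2 and at 49.3, 58.5 and 77.5 CPM in PA3, and these overlapped (-0.09, adjusted p = 0.68). Hand1 was higher, at 1.55, 3.93 and 3.54 CPM against 9.56, 12.8 and 12.8 CPM (1.95). Gsc, a homeobox gene that acts late in this programme, was at 11.7, 22.5 and 22.5 CPM in PA2 and at 0.612, 2.46 and 3.64 CPM in PA3 (-3.05 ± 0.49). Nr2f1, a nuclear receptor of the maxillary and proximal arch, was lower (-1.0) and so was Nr2f2 (-0.33). Barx1 (-0.57), of the later cartilage, was lower too. Jag1, the Notch ligand of the dorsal arch, was higher, at 116, 110 and 111 CPM in PA2 and 220, 176 and 182 CPM in PA3 (0.78), as were Msx2 (0.74) and Mef2c (0.90). Msx1 (0.19) was not called.

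**Figure D3:**
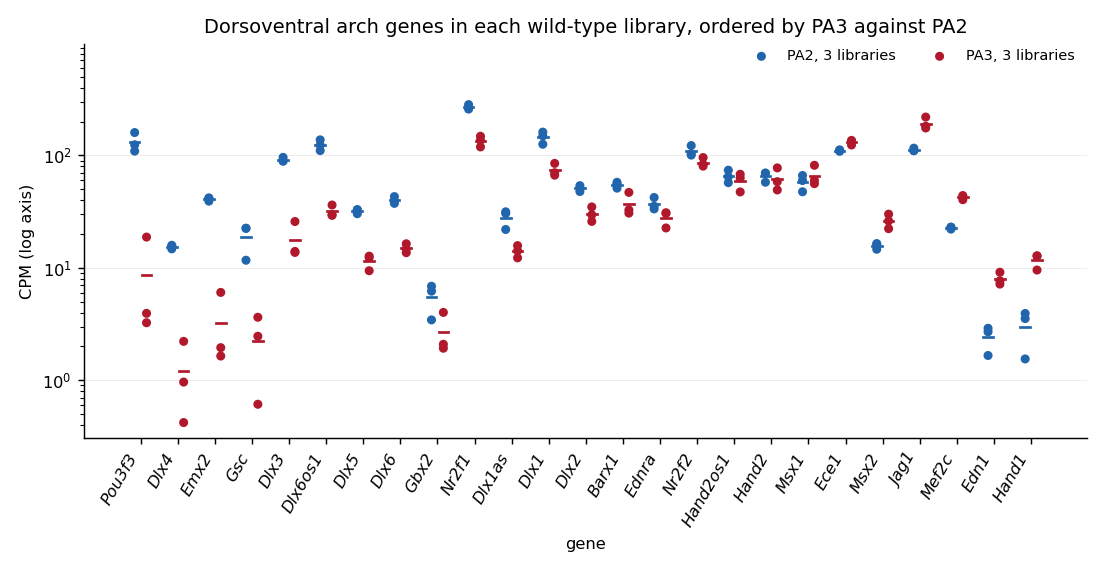
Expression of dorsoventral arch genes in CPM on a log axis, with 1 point per library and a bar at the mean of 3 libraries. Pou3f3, Dlx4, Emx2, Gsc and Dlx3 show the widest gaps with PA2 above PA3, Hand2 overlaps between the arches, and Edn1 and Hand1 lie higher in PA3.

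Genes that Hoxa2 is known to regulate in the second arch, a list taken with earlier results in view, did not share a direction. Of 14 tested, 6 were lower in PA3 and 3 higher, with a median of -0.28. Zfp703 was at 31.7, 32.9 and 37.7 CPM in PA2 and at 19.8, 17.6 and 22.3 CPM in PA3 (-0.78), and the Wnt receptor gene Fzd4 was at -0.56. Meox1, a homeobox gene induced by Hoxa2, was higher in PA3, at 10.7, 11.2 and 8.87 CPM against 28.2, 23.2 and 26.8 CPM (1.35). Six2 (1.97) and Lhx6 (1.31), both known to be held low by Hoxa2, were higher as well. Gbx2 was called lower (-1.06), though 1 PA3 library, at 4.02 CPM, lay within the PA2 range of 3.45 to 6.87 CPM, and dropping replicate 2 or 3 of either WT arch took it past the threshold (adjusted p 0.0611 to 0.0879).

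Further transcription factor families separated the arches. Over the lists of identity factors, the share called ran from 50% (Hox cofactors) to 88.5% (dorsoventral arch genes), against 36.5% of all genes. Of 30 mesenchymal homeobox genes tested, 15 were higher and 5 lower (median 0.49). Nkx2-6, a factor of the pharyngeal pouches, was at 8.75, 7.5 and 6.07 CPM in PA2 and at 73.6, 39.8 and 47.1 CPM in PA3 (2.85 ± 0.31), against 0, 0.0343 and 0 CPM in sorted crest. Alx1 (1.43), Nkx3-2 (1.04) and Prrx2 (0.65) were also higher in PA3. Barx2 was at 6.12, 5.12 and 5.76 CPM in PA2 and at 0.612, 0.858 and 1.13 CPM in PA3 (-2.69). Irx4 (-1.36) and Zfhx4 (-0.97) were lower.

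None of the 9 T-box genes tested was lower in PA3, and 5 were higher (median 1.13). Tbx2, a repressor of many mesenchymes, was at 45, 47.2 and 39.3 CPM in PA2 and at 159, 140 and 155 CPM in PA3 (1.79 ± 0.09, adjusted p = 3.8e-08, edgeR). Tbx3 was at 1.45. Tbx20, a cardiac factor, was at 0.348, 0.526 and 0.646 CPM in PA2 and at 8.3, 10.1 and 15.4 CPM in PA3 (4.44 ± 0.45). Tbx1, needed for the caudal arches, was at 1.39, 1.47 and 0.862 CPM against 5.66, 2.43 and 6.27 CPM (1.95), and without PA3 WT replicates 1 and 3 it was at 0.98 and not called (adjusted p = 0.259).

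Among 20 forkhead genes, 8 were higher and 4 lower, with a median of 0.25. The endodermal Foxa2 (1.40) and Foxa1 (1.36) and the placodal Foxi2 (1.79) were higher. Foxd2 (-0.78) and Foxp1 (-0.41) were lower, as were Foxd1 and Foxm1 at adjusted p of 0.046 and 0.047 (edgeR). Foxm1 lost its call without any 1 library but PA2 WT replicate 1 and PA3 HIRE1del replicate 3 (adjusted p 0.052 to 0.177). Foxd1 lost it by DESeq2 (0.0703) and without PA2 WT replicate 1 (0.0657, edgeR). Both calls were lost, leaving 2 lower, without PA2 WT replicate 2 or 3 or PA3 WT replicate 1 or 3. The same held without replicate 2 of either HIRE1del arch (Foxd1 at 0.0512 to 0.154 over these libraries). Among Eya, Dach, Pax and sine oculis (Six2 and its relatives) genes, whose products form a network in placodes, pouches and muscle, 7 of 15 were higher and 3 lower (median 0.69). Pax1 was at 7.09, 5.61 and 4.8 CPM in PA2 and at 32.5, 24.6 and 19.8 CPM in PA3 (2.14), Pax8 was at 4.07, Pax9 at 1.18 and Eya2 at 1.77.

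Of 41 other regional factors, 12 were higher and 13 lower, with a median of -0.11. Gata4 (3.78), Gata5 (3.33) and Gata6 (2.43), factors of heart and endoderm, were higher. Gata6 was at 1.43, 1.37 and 2.19 CPM in PA2 and at 7, 8.82 and 11.2 CPM in PA3. Gata3 (1.44), Sall1 (1.68) and Isl1 (0.82) were higher as well, and Zic1 had 4 counts in PA2 and 68 in PA3 (ratio 17.3, interval 6.46 to 65.4, and 43.4, 7.53 to 1740, without PA2 WT replicate 3). The crest factors Twist1 and Twist2 were lower. Twist1 was at 129, 133 and 139 CPM in PA2 and at 74.9, 84.2 and 98.2 CPM in PA3 (-0.64), and Twist2 was at -1.17. Sall3 (-1.88), Bnc2 (-1.57), Lmx1b (-1.40), Ebf1 (-0.89) and Lin28b (-0.88) were lower too. Without PA3 WT replicates 1 and 3, 8 were called lower.

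Over the signalling lists, the share called ran from 50% (Hedgehog) to 68.8% (Notch), against 36.5% of all genes. In the Wnt pathway, more genes were called lower in PA3 than higher. Of 51 tested, 19 were lower and 9 higher, with a median of -0.05, and 11 were called lower without PA3 WT replicates 1 and 3. Axin2, a direct target and inhibitor of the pathway, was at 109, 137 and 142 CPM in PA2 and at 52.9, 53.2 and 61.4 CPM in PA3 (-1.21 ± 0.10). Nkd2, a second feedback inhibitor, was at 60.6, 60.8 and 67.8 CPM against 24.5, 22.5 and 26 CPM (-1.37). Lef1 (-0.71) and Sp5 (-1.17) were lower, while Notum (0.04) was not called. Of the ligands, Wnt16 (-2.85) and Wnt10b (-2.73) were lower, Wnt11 (1.29) higher and Wnt5a (0.09) not called. Wnt5a was at 77.8, 71 and 76 CPM in PA2 and at 76.9, 76.5 and 86 CPM in PA3. Of the receptors, Fzd5 was at 8.79, 11.3 and 11.4 CPM against 26.4, 35 and 26.4 CPM (1.47) and Fzd10 was at -0.61. The secreted inhibitors were split, with Frzb (-0.82), Dkk2 (-0.88) and Wif1 (-1.54) lower and Sfrp1 (0.70), Dkk1 (0.77) and Dkk3 (1.15) higher.

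In the FGF pathway, more genes were called higher in PA3 than lower. Of 34 tested, 16 were higher and 3 lower (median 0.54). The share called was 55.9%, against 36.5% of all genes. Fewer genes were called higher without PA3 WT replicates 1 and 3, as for all genes. Fgf8, an epithelial ligand of the arches, was at 4.1, 3.09 and 2.43 CPM in PA2 and at 10.1, 6 and 6.98 CPM in PA3 (1.27). Fgf3 was at 1.43, 1.37 and 1.26 CPM against 6.5, 6.11 and 4.28 CPM (2.05), and Fgf15 was at 0.85. Of the targets, Etv5 was at 61.5, 56.3 and 49.9 CPM in PA2 and at 121, 92.4 and 88 CPM in PA3 (0.85), and Etv4 (0.54), Spry1 (0.73) and Spry2 (0.57) were higher. Dusp6, another target, was at -0.37 and close to the threshold (adjusted p = 0.054), and was called with a replicate block (0.000528) and when PA2 replicate 1 or 3 or PA3 replicate 3 of HIRE1del was dropped (0.0144 to 0.048). The receptor Fgfr2 (-0.54) and the inhibitor Il17rd (-0.45) were lower. In sorted crest Fgf8 was at 0.0335, 0.0686 and 0.0327 CPM and the placodal Foxi2 at 0, 0 and 0.0327 CPM. The surface ectoderm list summed to 57.2 to 68.8 CPM there and the pharyngeal endoderm list to 31.8 to 37.2 CPM. Both sums differed between the arches as given below, and their part in the FGF result was not tested.

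Of 42 BMP and TGF-beta genes, 21 were higher and 7 lower (median 0.35), and 19 and 6 were called without PA3 WT replicates 1 and 3. The ligand Bmp4 was at 18.6, 20.4 and 19.7 CPM in PA2 and at 51.7, 47.3 and 50.5 CPM in PA3 (1.35 ± 0.11). Bmp2 was at 1.12, 2.31 and 2.49 CPM against 9.37, 8.61 and 7.43 CPM (2.08). Tgfb2 (1.26), Tgfb1 (1.18), Bmp6 (1.72) and Bmp7 (0.53) were also higher. Several common targets were higher as well. Id1 was at 63.6, 75.9 and 60.9 CPM in PA2 and at 108, 98.5 and 124 CPM in PA3 (0.72), and Id2 (0.38), Id3 (0.46), Id4 (1.40) and the inhibitory Smad6 (0.85) and Smad7 (0.35) were higher. The receptors Bmpr1b (-1.09), Bmpr1a (-0.33) and Tgfbr1 (-0.34) were lower, as was the ligand Gdf6 (-0.87).

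In the Hedgehog pathway, 3 of 14 genes were higher and 4 lower, with a median of -0.03. The share called was 50%, against 36.5% of all genes. The target and receptor Ptch1 was at 0.32, the target Gli1 at 0.14 (adjusted p = 0.15) and the ligand Shh at 0.30 (adjusted p = 0.39). Gas1, a coreceptor, was lower, at 207, 180 and 199 CPM in PA2 and 81.9, 90.6 and 127 CPM in PA3 (-0.97). Dhh, the ligand of endothelium and Schwann cells, was higher, at 0.232, 0.245 and 0.4 CPM against 3.9, 3.82 and 3.51 CPM (3.63).

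Retinoic acid, which patterns the caudal arches, is removed by the Cyp26 enzymes. Of 18 genes of this pathway, 6 were higher and 4 lower (median -0.11), and 8 were lower for the 6 WT libraries alone with a replicate block. Cyp26c1 was at 4.41, 5.72 and 2.06 CPM in PA2 and at 22.4, 23.4 and 14.9 CPM in PA3 (2.32), and Cyp26b1 at 6.12, 11 and 10 CPM against 35.8, 26.5 and 22.3 CPM (1.64). Aldh1a2, the main enzyme that makes retinoic acid in the embryo, was low in both arches, at 1.39, 2.63 and 2.09 CPM in PA2 and 1.03, 3.36 and 1.74 CPM in PA3. The receptor Rarg was lower, at 96.7, 120 and 117 CPM against 46.2, 58.8 and 69.6 CPM (-0.94), and so were the binding proteins Crabp1 (-0.55) and Crabp2 (-0.31).

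In the Notch pathway, 10 of 16 genes were higher and Notch2 (-0.59) was lower (2 genes with a replicate block), with a median of 0.46, and 6 were called higher without PA3 WT replicates 1 and 3. Hey2, a target in artery walls, was at 2.67, 2.67 and 2.56 CPM in PA2 and at 12.1, 11.2 and 10.2 CPM in PA3 (2.08 ± 0.18). The ligands Dll1 (1.10), Jag1 (0.78), the targets Hey1 (0.59) and Nrarp (0.81) and the glycosyltransferase Mfng (1.47) were higher. Hes1 was not called (-0.19, adjusted p = 0.117), but was with a replicate block (0.0498). The arterial endothelial genes Gja4 and Gja5 moved with them, as given below, and their part was not tested.

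Guidance genes went both ways, with 18 of 51 higher and 14 lower (median 0.09). Slit2, a repellent, was at 59.2, 63 and 66.4 CPM in PA2 and at 155, 128 and 128 CPM in PA3 (1.12), and Slit3 (1.14), Unc5b (1.20), Sema3f (1.10) and the chemokine Cxcl12 (0.51) were higher. Several Eph receptors of mesenchyme were lower, such as Epha4, at 205, 179 and 203 CPM against 132, 117 and 135 CPM (-0.61), with Epha3 (-0.49), Epha7 (-0.45), Sema3a (-0.45), Sema5a (-0.71) and Ntn1 (-0.66). Without PA3 WT replicates 1 and 3, 9 were called lower.

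Of 39 IGF and other growth factor genes, 17 were higher and 5 lower (median 0.17), against 10 and 1 without PA3 WT replicates 1 and 3. Igfbp5, which binds IGFs in the matrix, was among the most abundant and was at 474, 472 and 485 CPM in PA2 and at 1384, 1267 and 1321 CPM in PA3 (1.47 ± 0.06). Igf2 was at 635, 708 and 660 CPM against 942, 1041 and 1054 CPM (0.60), whereas Igf1 was lower (-0.61). Bdnf (2.43), Gdnf (1.20) and Erbb3 (1.39), which act on neurons and glia, were higher. Hgf, which attracts muscle precursors and axons, was at 52, 50.5 and 59.1 CPM in PA2 and at 30.9, 26.5 and 29.4 CPM in PA3 (-0.90), and Pdgfra, the receptor of crest mesenchyme, was at -0.65.

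**Figure D4:**
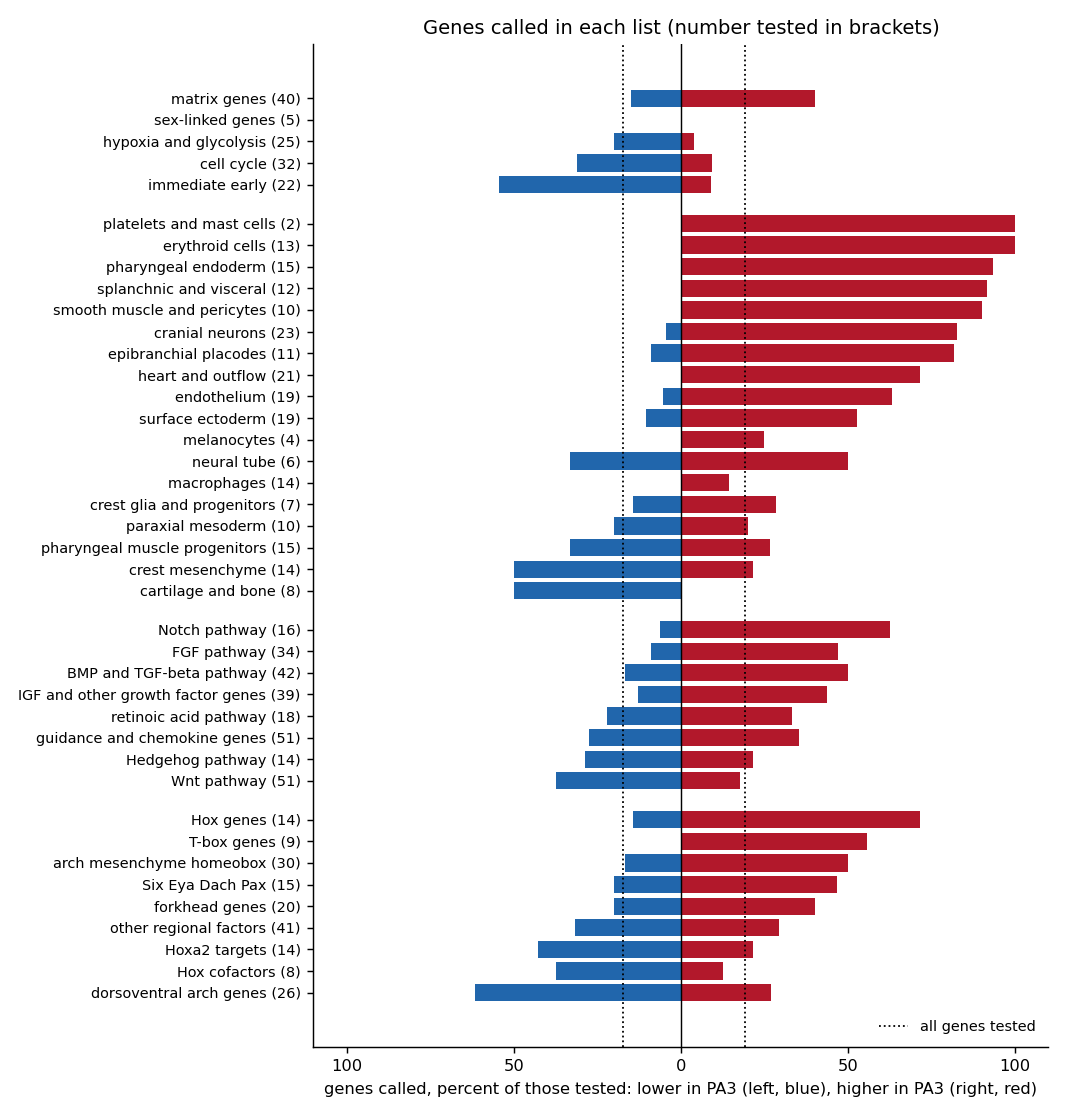
Percent of the tested genes of each of the 40 gene lists that were called higher (right) or lower (left) in PA3, with dotted lines at the shares for all genes, 19.1% and 17.4%. The bars of erythroid cells, platelets and mast cells (2 genes, of the megakaryocyte lineage), pharyngeal endoderm and visceral genes reach farthest to the right. Those of dorsoventral arch genes and immediate early genes reach farthest to the left.

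Marker lists of the tissues in the dissected arches differed too, most of them with more genes called higher in PA3 than lower. The share called ran from 14.3% (macrophages) to 100% (erythroid cells, platelets and mast cells), against 36.5% of all genes. Of 14 crest mesenchyme markers tested, 7 were lower and 3 higher with a median of -0.13, and their sum was 1302 ± 81.4 CPM (SD, n = 3) in PA2 and 1113 ± 125 CPM in PA3, with overlapping ranges. Without PA3 WT replicate 1, 4 were called lower. Besides Dlx5, Dlx2 and Twist1, Pdgfra was at 478, 548 and 588 CPM in PA2 and at 282, 353 and 390 CPM in PA3. Prrx2, Alx1 and Col1a1 (1.44) were higher. Of 7 glial and progenitor markers, 42.9% were called, near the 36.5% of all genes. Sox10 (1.13) and Erbb3 (1.39) were higher and Ets1 (-0.23) lower, with a median of 0.23. The call of Sox10 was lost without PA2 WT replicate 1 (adjusted p = 0.0596, edgeR) and without PA3 WT replicate 1 (0.051).

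Cranial neuron genes showed the largest median of all 40 lists. Of 23 tested, 19 were higher and 1 lower, with a median of 3.40, and 18 and 1 were called without PA3 WT replicates 1 and 3. Their sum was 233.9 ± 3.11 CPM (SD, n = 3) in PA2 and 460.5 ± 65.9 CPM in PA3. The neurofilament genes Nefm (3.37) and Nefl (2.90), which share 1108 exon bases on opposite strands, and the early neuronal Stmn2 (3.73) and Dcx (3.25) were higher. Phox2a, of visceral neurons, was higher (4.24), and Tlx3 had 1 count in PA2 and 105 in PA3 (ratio 107, interval 18.8 to 4270). That ratio was 67 (11.8 to 2670) without PA2 WT replicate 3, and without PA2 WT replicate 2, the library with the count, it was at least 24-fold higher. Gap43 was the gene that was lower, at 77.1, 84 and 79 CPM in PA2 and 23.8, 30.1 and 30.5 CPM in PA3 (-1.51). It was at 115, 102 and 98.4 CPM in sorted crest. Of 11 genes of the epibranchial placodes, where these neurons are born, 9 were higher and Dlx3 was lower (median 1.77). Of 6 neural tube genes, 3 were higher and 2 lower (median 0.43), with Sox2 at 15.3, 14 and 11 CPM against 40.8, 29.1 and 24.8 CPM (1.23). Without any 1 of PA2 WT replicates 1 to 3 or PA3 WT replicates 2 and 3, 1 was called lower.

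The 13 erythroid genes tested were all higher in PA3 (median 3.09), also without PA3 WT replicates 1 and 3. Hbb-y, an embryonic beta globin, was at 608, 1029 and 932 CPM in PA2 and at 4981, 10590 and 7148 CPM in PA3 (3.15 ± 0.36). Gata1, the erythroid transcription factor, was at 3.29, 5.12 and 3.63 CPM against 23.6, 36.9 and 21.9 CPM (2.77). The erythroid genes took 0.162, 0.255 and 0.211% of all counts in PA2 and 1.33, 2.57 and 1.74% in PA3. Hbb-b1 was at 4.92, and reads of Hbb-b1, Hbb-bt and Hba-a1 may be shared with near-identical copies. Of the list labelled platelets and mast cells, whose genes were chosen for the megakaryocyte lineage, Itga2b (2.17) and Gp9 (2.04) were tested. Both were higher (median 2.10), and mast cells were not measured apart. Of 14 macrophage genes, 14.3% were called, under the 36.5% of all genes. Lyz2 (1.95) and Spi1 (0.89) were higher, with a median of 0.55, and 4 were higher for the 6 WT libraries alone with a replicate block. Spi1 is expressed in both arches at or under 1.61 CPM, and its call was lost, leaving 1, without PA2 WT replicate 1 or 3 or without PA3 WT replicate 1 (adjusted p 0.0508 to 0.0819).

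Endothelial genes differed by far less than blood. Of 19 tested, 12 were higher and Robo4 (-0.47, adjusted p = 0.033) was lower, with a median of 0.35. Pecam1, of all endothelium, was at 43.1, 50.5 and 45.1 CPM in PA2 and at 51.4, 58.1 and 56.2 CPM in PA3 (0.26), and dropping PA2 replicate 1 or 3 or PA3 replicate 2 or 3 of WT took it past the threshold (adjusted p 0.0538 to 0.0743). The arterial connexins Gja5 and Gja4 showed the largest differences of the list. Gja5 was at 12.2, 16 and 15.1 CPM in PA2 and at 41.8, 41.8 and 38.1 CPM in PA3 (1.49), and Gja4 was at 1.66. Kdr, a receptor of all endothelium, was not called (-0.16) except with a replicate block (adjusted p = 0.0427), for the 6 WT libraries alone (0.0488) and without PA3 HIRE1del replicate 1 (0.0344). With a replicate block, or without PA3 HIRE1del replicate 1, 2 were called lower, and none without PA2 WT replicate 2, PA3 WT replicate 1 or PA3 WT replicate 3.

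Smooth muscle genes, which mark the wall of the arch arteries, were higher in PA3 for 9 of 10 tested (median 2.11), and for 5 without PA3 WT replicates 1 and 3. Acta2, smooth muscle actin, was at 2.32, 3.09 and 2.4 CPM in PA2 and at 69.1, 72.2 and 85.5 CPM in PA3 (4.86 ± 0.28, adjusted p = 1.8e-07, edgeR). Tagln was at 4.8, 4.17 and 3.94 CPM against 67.6, 53.5 and 55.8 CPM (3.78), Cnn1 was at 3.56 and their coactivator Myocd at 3.36 (4.25 without PA2 WT replicate 2). Pdgfrb, of pericytes, was not called (-0.03).

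Of 21 heart and outflow genes, 15 were higher and none lower (median 1.82), and 8 were higher without PA3 WT replicates 1 and 3. Myh7, a cardiac myosin, was at 2.09, 1.96 and 2.92 CPM in PA2 and at 25.1, 13.6 and 31.8 CPM in PA3 (3.32). Tnnt2, cardiac troponin T, had 6 counts in PA2 and 145 in PA3 (ratio 24.6, interval 11 to 68.2). The second heart field factor Isl1 (0.82) was higher, and Fgf10 (-0.13) was not called.

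The progenitors of branchial arch muscle gave another picture, with 4 of 15 genes higher and 5 lower (median 0.26). Msc, of the first 2 arches' muscle core, was at 6.12, 4.67 and 5.11 CPM in PA2 and at 0.995, 1 and 2.35 CPM in PA3 (-1.85), and Lhx2 was lower (-1.65). Actc1, cardiac actin, was at 1.28, 1.33 and 1.63 CPM against 23.7, 18.1 and 20 CPM (3.85). Without PA2 WT replicate 3, PA3 WT replicate 1 or PA3 WT replicate 2, 3 were called lower. Of 10 paraxial mesoderm genes, 40% were called, near the 36.5% of all genes. Tbx18 (1.13) and Meox1 were higher and Pax7 (-1.98) and Myf5 lower (median -0.20). Pax7 was at or under 1.51 CPM throughout and at -3.21 without PA3 WT replicate 3. The call of Myf5 was lost without PA2 WT replicate 1 or 3 or without PA3 WT replicate 1 or 2 (adjusted p 0.051 to 0.0741), and that of Tbx18 without PA3 WT replicate 2 (0.0513).

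Serum response factor, with Myocd as coactivator, binds the CArG box, an element of many muscle genes and of immediate early genes. The promoters of both groups were searched for it on both strands, in the 250 bases before each start, in RefSeq sequence of GRCm38.p6. Only the exact pattern of CC, 6 bases of A or T, and GG was counted as a box. A box was found for 439 of 27025 genes (1.62%), with a gene counted once if any of its promoters held one. The smooth muscle, heart and pharyngeal muscle lists together hold 55 genes. A box was found for 5 of the 45 with a promoter at hand (11.1%), and for 2 of 21 immediate early genes (9.52%). None was found for the 6 smooth muscle genes with a promoter at hand, of 10 listed. Boxes that depart from the exact pattern or lie farther upstream were not searched for, so their absence is not shown. These 6 windows of 30 bases, from the tested genes with a box, are shown because the genes did not share a direction between the arches, with the CArG box in capitals and each read 5′ to 3′ on the strand of its gene.
Actc1 (chr2:114052903-114052932, minus strand, box 47 bases upstream of the start): gctaaggcgaCCAAATAAGGcaaggtggca
Acta1 (chr8:123894829-123894858, minus strand, box 73 bases upstream): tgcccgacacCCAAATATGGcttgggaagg
Myl7 (chr11:5898824-5898853, minus strand, box 61 bases upstream): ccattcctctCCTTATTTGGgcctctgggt
Ebf3 (chr7:137314499-137314528, minus strand, box 73 bases upstream): gcggccgctcCCATATATGGcgcaggcgcc
Myl3 (chr9:110763583-110763612, plus strand, box 85 bases upstream): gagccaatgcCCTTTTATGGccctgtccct
Zfp36 (chr7:28379267-28379296, minus strand, box 58 bases upstream): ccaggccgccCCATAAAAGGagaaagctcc
Actc1 (3.85), Acta1, skeletal actin (2.36, adjusted p = 0.0021, edgeR), and Myl7, an atrial myosin light chain (2.57, adjusted p = 0.026), were higher in PA3. The call of Myl7 was lost when any 1 of the 6 WT libraries but PA3 replicate 2 was left out (adjusted p 0.0631 to 0.0864) and in the limma-voom test (0.237). Acta1 was at 3.19 without PA2 WT replicate 1. Ebf3, a factor of muscle progenitors that is also high in sorted crest (239.3 to 279.2 CPM), was lower, at 133.8, 144.3 and 157.4 CPM against 114, 123 and 123.3 CPM (-0.27, adjusted p = 0.036). Its call was lost when any 1 of the 6 WT libraries but PA2 replicate 1, or PA3 HIRE1del replicate 2, was left out (adjusted p 0.0532 to 0.144). Myl3, a ventricular myosin light chain, was not called (0.77, adjusted p = 0.239). Zfp36, which destabilizes mRNAs of early response genes, was lower (-0.73, adjusted p = 0.0011). A match is a description of the sequence and was not tested for binding.

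Epithelial markers also differed. Of 19 surface ectoderm genes, 10 were higher and 2 lower (median 0.62), and their sum was 594 ± 29.4 CPM (SD, n = 3) in PA2 and 1113 ± 134 CPM in PA3. Epcam was at 58.2, 48.5 and 48.4 CPM against 149, 117 and 116 CPM (1.30), and Krt8 (1.47), Krt18 (1.22) and Cldn6 (1.53) were higher. These 4 genes and Cdh1 are shared by ectoderm and endoderm. Trp63, of the basal ectoderm, was not called, at 40.3, 35.2 and 36.4 CPM against 37, 35.9 and 36.5 CPM (-0.03). The keratin Krt14 (-2.80, and -3.52 without PA3 WT replicate 3) and Perp (-0.36), both of ectoderm, were lower. The call of Perp was lost without PA2 WT replicate 1 or PA3 WT replicate 1 or 2 (adjusted p 0.0531 to 0.0694). With a replicate block 4 were called lower, and 1 without PA3 WT replicate 1.

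Pharyngeal endoderm genes were higher for 14 of 15 tested and lower for none (median 1.37), and higher for 10 without PA3 WT replicates 1 and 3. Their sum was 59.5 ± 3.55 CPM (SD, n = 3) in PA2 and 164.5 ± 19.5 CPM in PA3. Gcm2 led the list, Casr, the calcium receptor of the parathyroid, was at 1.97, and Shh was not called. Nkx2-1, of thyroid and lung, had 0 counts in PA2 and 39 in PA3 (at least 13.2-fold higher over the group's floor, 8.29-fold without PA2 WT replicate 3 and 6.95-fold without PA3 WT replicate 3).

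Of 12 splanchnic and visceral genes, 11 were higher (median 2.47), and 9 without PA3 WT replicates 1 and 3. Their summed levels differed widely among the PA3 libraries, at 551.4, 137.2 and 93.8 CPM against 40.7, 51.9 and 42.7 CPM in PA2 and 73 to 83.7 CPM in sorted crest. Afp, alpha-fetoprotein of yolk sac and liver, had 6 counts in PA2 and 7948 in PA3 (ratio 1350, interval 620 to 3680), of which 6539 were in replicate 1. Without that library the ratio was 345 (158 to 942), and the call with all libraries was lost in the limma-voom test (adjusted p = 0.157). Ttr and Apoa4 had 0 counts in PA2 and were at least 173-fold and at least 166-fold higher in PA3. Without PA3 WT replicate 1 both were at least 49.5-fold higher, and without PA2 WT replicate 3 at least 108-fold and at least 104-fold. Apoa1 was at 25.2, 4.97 and 1.61 CPM in PA3, and Cubn, an endocytic receptor of visceral endoderm and kidney, at 73.4, 10.6 and 6.95 CPM, against at most 1.11 CPM in PA2. For each of these genes, replicate 1 was the highest PA3 library. Without it Apoa1 was at 4.11 and Cubn at 3.42, in place of 5.80 and 5.21.

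**Figure D5:**
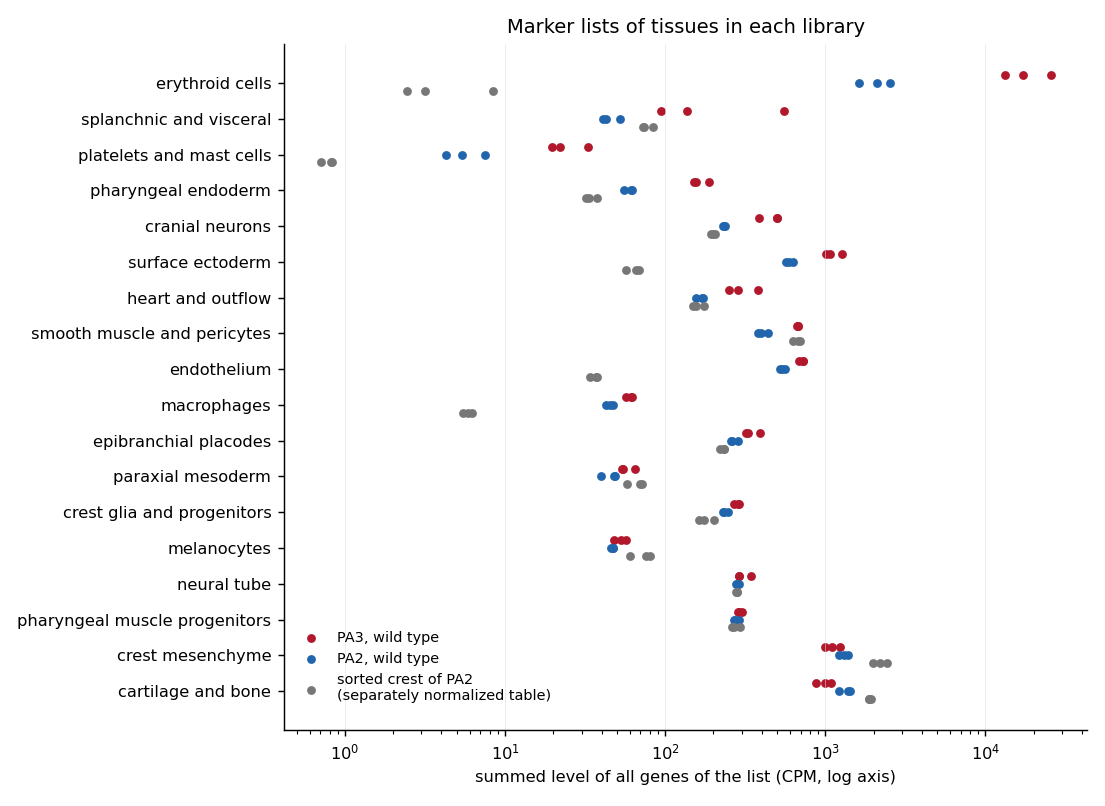
Summed CPM of marker lists in each library of WT PA3, WT PA2 and sorted PA2 crest, on a log axis with 1 point per library. Erythroid, endothelial and ectodermal sums lie far lower in sorted crest than in either arch, and PA3 lies above PA2 for erythroid cells, cranial neurons and pharyngeal endoderm.

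Of the cartilage and bone genes tested 50% were called, and of the matrix genes 55%, against 36.5% of all genes. Of 8 cartilage and bone genes, 4 were lower and none higher (median -0.19). Col9a1, a cartilage collagen, was at 294, 369 and 363 CPM in PA2 and at 104, 195 and 202 CPM in PA3 (-1.04) and Col2a1 was at -0.30. Sox9, their regulator, was at -0.32 (adjusted p = 0.04). It missed the threshold, at 0.0519 to 0.138, when any PA2 library of WT, PA3 replicate 1 of WT or replicate 1 of either HIRE1del arch was dropped. With a replicate block, 1 was called higher, as it was without PA3 HIRE1del replicate 2, and 2 were for the 6 WT libraries alone with the block. Of 40 matrix genes, 16 were higher and 6 lower (median 0.23), and 10 were higher without PA3 WT replicates 1 and 3. Sparc was at 110, 129 and 114 CPM in PA2 and at 245, 245 and 241 CPM in PA3 (1.05), Lum was at 2.18 and Thbs1 at 0.99. Lox, which crosslinks collagen and elastin, was lower, at 8.56, 9.86 and 13.3 CPM against 1.8, 3.04 and 2.96 CPM (-2.02), as was Col23a1 (-1.22). Of 4 melanocyte genes, 25% were called, under the 36.5% of all genes. Mitf was higher (0.68) with a median of 0.89, and 3 were called with a replicate block.

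The cell cycle genes moved by small amounts. Of 32 tested, 10 were lower and 3 higher with a median of -0.10. The share called was 40.6%, near the 36.5% of all genes. Top2a was at 1520, 1498 and 1642 CPM in PA2 and at 1252, 1259 and 1196 CPM in PA3 (-0.33), whereas Mki67 was not called (0.07). Ccnd3 (0.70) and the inhibitor Cdkn1a (1.03) were among the higher genes. Without PA2 WT replicate 1, 4 were called lower, without PA3 WT replicate 1, 6, and without PA3 WT replicate 3, 5. Of 25 hypoxia and glycolysis genes, 24% were called, under the share of all genes. Vegfa was higher (0.17) and 5 were lower, with a median of -0.13. With a replicate block these were 2 and 8, and none was called higher for the 6 WT libraries alone with the block (Vegfa at an adjusted p of 0.0508). Without PA3 WT replicate 1 or PA2 WT replicate 2, 3 were lower, and without PA3 WT replicate 2, 2. The call of Vegfa was lost without PA2 WT replicate 1 or 2 or PA3 WT replicate 1 or 2 (adjusted p 0.0577 to 0.103).

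Immediate early genes, which cells induce within minutes of a growth signal or of handling, were lower in PA3 for 12 of 22 and higher for 2 (median -0.34). The share called was 63.6%, against 36.5% of all genes. Fos was at 30.1, 27.5 and 28.6 CPM in PA2 and at 1.68, 2.21 and 4.38 CPM in PA3 (-3.36 ± 0.27). Egr1 was at 5.92, 5.05 and 6.37 CPM against 0.918, 1.54 and 1.42 CPM (-2.15), and Ccn1, a target of serum response factor and of YAP, was at 118, 134 and 116 CPM against 33.3, 26.5 and 37.8 CPM (-1.91). Ccn2 (-1.30) was lower, Junb (0.16) and Atf3 (0.41) were not called, and Myc (0.74) and Btg2 (0.71) were higher. How long each arch was handled before lysis is not given in the labels, and its part was not tested.

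To ask whether the arch difference holds in other embryos, the HIRE1del libraries of the same stage were set beside it. They share the fit but no library with the WT comparison. In HIRE1del embryos 4806 genes (33.4%) differed between PA3 and PA2, 2686 higher (18.7%) and 2120 lower (14.7%). Of the WT calls, 3626 were called in the same direction in HIRE1del, which is 69% of the WT calls and 75.4% of the HIRE1del calls, and 4 were called in the opposite direction. Of the 1198 WT calls of at least 2-fold, 1191 had the same sign in HIRE1del and 1076 were called there too. Log2 fold changes over the 14383 genes had a Pearson r of 0.922, a description across genes, which are not independent replicates. Pou3f3 (-2.75), Emx2 (-3.30), Gsc (-3.19), Hoxa3 (4.45), Hoxb3 (2.69) and Acta2 (5.04) were called in HIRE1del as well. The erythroid list again had 13 genes higher and the cranial neuron list 20. The visceral sum was 73.0, 77.9 and 101.9 CPM in HIRE1del PA3, below WT replicate 2 in each library.

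The arch difference itself differed between genotypes for 7 genes (0.0487%), namely Hoxa2, Hoxaas2, Meis2, Fzd4, Mecom, Sox8 and Cntfr, and for 26 with a replicate block. Hoxa2, Hoxaas2 and Meis2 were called when any 1 of the 12 libraries was left out, while Mecom lost its call for 6 of the 12, Sox8 for 7, Fzd4 for 8 and Cntfr for 10. At an unadjusted p under 0.05 (edgeR) there were 794 of the 14383 genes tested, while a share of 0.05 would pass with no true difference. Hoxa2 was at 5.75, 4.75 and 7.09 CPM in HIRE1del PA2 and at 23.7, 25.6 and 22.1 CPM in HIRE1del PA3 (2.02), so that its small fall from PA2 to PA3 in WT stood against a rise in HIRE1del. Hoxaas2 moved with it, at 0.301, 0.156 and 0.554 CPM against 4.6, 6.12 and 5.74 CPM.

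Sorted PA2 crest was used to describe where the arch genes stand in crest cells of PA2. These counts were deposited separately and taken from single-end reads, and no test was run. The series holds no sorted crest of PA3. Of the genes at least 2-fold lower in PA3, 78.5% had at least 1 CPM in sorted crest, and 96.3% in unsorted PA2. Of those at least 2-fold higher, 34.2% had it in sorted crest, and 56.4% in unsorted PA2. Over all genes tested these shares were 84.4% and 93.6%. The median log2 ratio of sorted crest to unsorted PA2, with 0.5 CPM added, was 0.31 for the genes lower in PA3, -0.58 for those higher and -0.06 for all. Pou3f3 was at 215.5, 209 and 189 CPM in sorted crest and Dlx3 at 142, 149 and 163 CPM, in each library above the unsorted PA2 libraries. Emx2 was at 54.2, 55 and 48.6 CPM and Gsc at 43, 58.4 and 59.8 CPM there, again above unsorted PA2. Of the genes higher in PA3, Gcm2, Neurog2 and Neurod4 had 0 counts in the 3 sorted libraries. They were also at or under 0.387 CPM in each unsorted PA2 library. Their absence from PA2 crest therefore cannot show whether crest cells of PA3 express them. Tbx2 was at 107, 119 and 140 CPM and Slit2 at 76.1, 76.5 and 90.2 CPM in sorted crest.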

How the data were processed

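RNA was taken from dissected PA2 and PA3 of E10.5 embryos with an unstranded kit (TruSeq RNA Library Prep v2) and sequenced as 50-base paired-end reads (single-end for sorted crest). The authors aligned reads with QuasR (1.34.0, with Rhisat2 1.12.0) and deposited raw counts per gene of the UCSC known gene set (TxDb.Mmusculus.UCSC.mm10.knownGene 3.4.7), counted on the strand opposite to the gene. Without strand, reads in exons that overlap a gene of the other strand cannot be told apart, which also touches Myh7, Nr2f2, Gata5, Pax1, Shh and Sox8. No deposited column was left unmapped. Depth, and the floor of 3 counts, are given per library above, and intervals cover counting error only.

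From the counts, genes that reached 1 CPM in 2 or more of the 12 genotype libraries were scaled by TMM and fitted with edgeR (4.0.16, R 4.3.3) in 1 quasi-likelihood model with a mean per group. PA3 was set against PA2 in WT, in HIRE1del and between genotypes, with Benjamini-Hochberg adjustment over all genes tested and a threshold of 0.05. Each SE is the absolute log2 fold change divided by the square root of the quasi-likelihood F statistic. It was not taken from the fit itself. CPM values were computed from the deposited counts. Same-numbered libraries of both arches deviated together (r of 0.355, 0.226 and 0.216 in WT and 0.167, 0.244 and 0.317 in HIRE1del), so the numbers pair the samples by the data, and a replicate block was run. On simulated data, 169 of 200 genes changed by 1 on the log2 scale in the WT comparison were called (84.5%), among 14182 genes.

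Named in the text are the 15 largest rises and 15 largest falls among called genes whose mean log2 CPM was 1 or more and whose ranges were apart, and genes of the 40 lists. Some genes that this rule covers are counted but not reported here. Members and lists were chosen with earlier results of these data known. Alternatives used limma (3.58.1), DESeq2 (1.42.0), other scalings and filters, and left out libraries. Leaving out PA3 WT replicates 1 and 3 together was chosen after seeing the data. Positions are those of GRCm38, and promoters were searched with Python (3.11.15).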

Additional observations from a re-analysis of the deposited data

Results flagged for a closer look

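For 7 genes the difference between PA3 and PA2 was not the same in WT and HIRE1del embryos, by the test of the difference itself (edgeR, adjusted over all genes tested). Values are the WT difference minus the HIRE1del difference on the log2 scale. Hoxa2 differed by -2.37 (SE 0.158, adjusted p = 1.56e-05), with -0.35 in WT and 2.02 in HIRE1del. The antisense transcript Hoxaas2 from the same cluster differed by -4.11 (SE 0.304, adjusted p = 2.89e-05), with -0.12 in WT and 4 in HIRE1del, and it shares 503 exon bases with Hoxa3, from which its reads there cannot be told apart. Meis2, the Hox cofactor, differed by -0.62 (SE 0.066, adjusted p = 0.00151), with -0.37 and 0.26. It was at 274, 287 and 290 CPM in HIRE1del PA2 and at 334, 356 and 327 CPM in HIRE1del PA3. Sox8, a SoxE factor of crest, differed by -1.15 (SE 0.157, adjusted p = 0.0205), with -0.24 and 0.91. The Wnt receptor gene Fzd4 differed by -0.97 (SE 0.14, adjusted p = 0.0225), with -0.56 and 0.41. Mecom, a zinc finger gene, differed by -0.74 (SE 0.107, adjusted p = 0.0225), with -0.13 and 0.61. Cntfr, the receptor of ciliary neurotrophic factor, differed by -0.89 (SE 0.138, adjusted p = 0.0409), with -0.67 and 0.22. All 7 differences had the same sign. Without any 1 of the PA2 WT libraries, PA2 HIRE1del replicates 1 and 2 and PA3 HIRE1del replicate 2, 3 or 4 genes were called, and 12 were without PA2 HIRE1del replicate 3. Hoxa2, Hoxaas2 and Meis2 stayed called for each of the 12 left-out libraries (highest adjusted p 0.0101, of Meis2), and the other 4 did not.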

How the results depend on the processing

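The WT count of 5252 genes lay between 4121 and 6098 under the other scalings, filters, tests and single left-out libraries, and the median of all genes moved by under 0.02. Leaving out 1 library gave 4121 to 5354 genes, with 2234 to 2825 higher and 1887 to 2547 lower, 940 to 1113 at least 2-fold higher and 124 to 158 at least 2-fold lower, 3733 to 4864 in HIRE1del and 3 to 12 for the difference between genotypes. A minimum log2 fold change of 1 left 1198 WT genes (1063 higher, 135 lower), 1178 in HIRE1del and 3 for the difference. Without PA3 WT replicates 1 and 3, 2622 were called, 1677 higher and 945 lower, and fewer samples entered that fit. Of 245 genes named here and called, 35 were not called there and none had the opposite sign. The difference between genotypes had 29 genes by DESeq2 and 26 with a replicate block, and the cause was not tested. With a replicate block 6098 WT genes were called, and calls of named genes that changed with the block are given beside them (Xist, Dusp6, Hes1 and Kdr). In this fit of 12 libraries it changed no other call of a named gene. For the 6 WT libraries alone with the block, Vegfa (adjusted p = 0.0508) and Foxm1 (0.0935) were not called and Hotairm1 was (0.0214). An average log2 CPM of at least 1 left 4684 genes, of which 47.8% were higher against 52.4% of all calls, and of calls of at least 2-fold 88.7% were higher. Hox genes called higher numbered 18 without the filter on low counts. Genes under that filter could not be called in the fit.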
